A study of Homo sapiens with 30 samples.

Results

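Transcripts of 42 genes that act in G2 and mitosis were followed in the human leukaemic T cell line Jurkat E6-1 through 36 h of activation in 2 genotypes. The 42 genes were chosen by symbol from the 54300 symbols of the count table, because their products prepare or carry out cell division. Every one of them was found and passed the filter on low counts. The WT cells were unedited and the KO cells lacked isoform 1 of SLAMF6, a SLAM family receptor on lymphocytes, with the edit written as SLAMF6∆17-65. Both were left unstimulated (0 h) or activated for 6, 12, 24 or 36 h with PMA, a phorbol ester that switches on protein kinase C, together with ionomycin, which raises calcium. Each of the 10 groups held 3 libraries, 30 in all, of total RNA. The labels give the times without a unit, and hours were taken from the protocol of a cytokine assay that ran for 48 h. The series title names overexpressed isoform 3 and the design text a knockout of isoform 1; the grouping here rests on the design text. Library titles carry the letter A for WT and B for KO up to 24 h and C for both genotypes at 36 h, and what the letter stands for is not given. Up to 24 h the letter and the genotype cannot be told apart, comparisons of 36 h with earlier times cross letters, and KO against WT at 36 h lies within letter C. No label says how many edited clones the KO cells came from or whether the libraries of a group were separate cultures, so the p-values measure the spread between these libraries only.

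Cells that leave S phase build up cyclin B and its partner kinase CDK1, which start mitosis when the CDC25 phosphatases activate them. The Aurora and Polo-like kinases and the motor proteins then build the spindle, and the kinetochore proteins fasten chromosomes to it. The spindle checkpoint holds the cell until every chromosome is attached, after which CDC20 and the anaphase-promoting complex destroy cyclin B and securin, and the cytokinesis proteins cut the cell apart. Transcripts of these genes are low in G0 and G1 and peak in G2 and mitosis. The DREAM complex represses them and B-MYB and FOXM1 activate them, in many cases through a promoter element named CHR (cell cycle genes homology region), often near CCAAT boxes. Jurkat cells divide without stimulation, and strong PMA and ionomycin stimulation is known to slow the growth of T cell lines.

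The CHR element was searched for as the letters TTTGAA or their reverse complement TTCAAA, and the CCAAT box as CCAAT or ATTGG, in promoter windows from RefSeq (GRCh38.p14) that reach from 250 bases before to 50 bases after a gene's start. Windows were found for 35 of the 42 genes. The element occurred in a window of 25 of those 35 genes (71.4%), against 18.2% of all 27305 genes in the table, 64.6% of 65 other G2 and mitosis genes and 5.13% of 39 S phase genes. In the last 100 bases of the window, around the start site, it was present in 21 of the 35 genes (60.0%), against 5.77% of all genes. CCAAT was present in 29 of the 35 genes (82.9%), against 39.7% of all genes, and both in 20 genes (57.1%), against 7.26%. The plot of promoter elements gives these shares beside those of the S phase genes, of which 59.0% held CCAAT. A match of letters is a description and not a binding site, and these genes are known to share such elements. Variant spellings were not searched, so a gene without a match is not shown to lack the element. FOXM1, BUB3, TTK, UBE2C, AURKA, BIRC5 and TPX2 had no window.

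The first 4 windows below hold a CHR match shortly before the start and a CCAAT match further out, an arrangement that was not counted over the genes, and the last 2 lack the CHR letters, one of them that of PTTG1, which had the smallest change at 24 and 36 h in WT. Each runs 5′ to 3′ on the gene's strand from 120 bases before to 20 after the start, 140 bases in all, with every CHR and CCAAT match in capitals. CCNB2 (cyclin B2), PLK1 (Polo-like kinase 1), KIF11 (a spindle motor) and PRC1 (a midzone bundler) have a CHR match that begins 29, 29, 28 and 20 bases before the start. In CCNB1 (cyclin B1) these letters were not found, but 2 CCAAT matches were. PTTG1 (securin) likewise had CCAAT letters without the CHR letters.
CCNB2, chr15:59105026-59105165, plus strand: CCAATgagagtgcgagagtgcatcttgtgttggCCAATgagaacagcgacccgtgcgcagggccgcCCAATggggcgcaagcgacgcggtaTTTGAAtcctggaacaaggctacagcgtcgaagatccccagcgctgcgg
PLK1, chr16:23678769-23678908, plus strand: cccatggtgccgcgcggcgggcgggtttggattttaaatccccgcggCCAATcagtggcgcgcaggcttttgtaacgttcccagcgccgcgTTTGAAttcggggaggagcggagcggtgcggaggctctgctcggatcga
KIF11, chr10:92593010-92593149, plus strand: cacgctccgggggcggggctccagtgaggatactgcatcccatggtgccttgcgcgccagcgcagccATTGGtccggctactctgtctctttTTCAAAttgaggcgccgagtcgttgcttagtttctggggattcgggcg
PRC1, chr15:90994516-90994655, minus strand: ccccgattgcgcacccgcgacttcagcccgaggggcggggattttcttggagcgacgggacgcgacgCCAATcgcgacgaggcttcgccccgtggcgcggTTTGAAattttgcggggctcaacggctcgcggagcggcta
CCNB1, chr5:69167030-69167169, plus strand: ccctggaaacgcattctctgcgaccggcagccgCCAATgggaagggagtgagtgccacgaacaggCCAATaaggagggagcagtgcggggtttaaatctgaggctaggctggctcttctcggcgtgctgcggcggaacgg
PTTG1, chr5:160421735-160421874, plus strand: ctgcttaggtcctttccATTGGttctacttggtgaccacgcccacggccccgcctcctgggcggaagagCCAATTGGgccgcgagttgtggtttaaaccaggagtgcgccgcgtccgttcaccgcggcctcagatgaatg

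**Figure D1:**
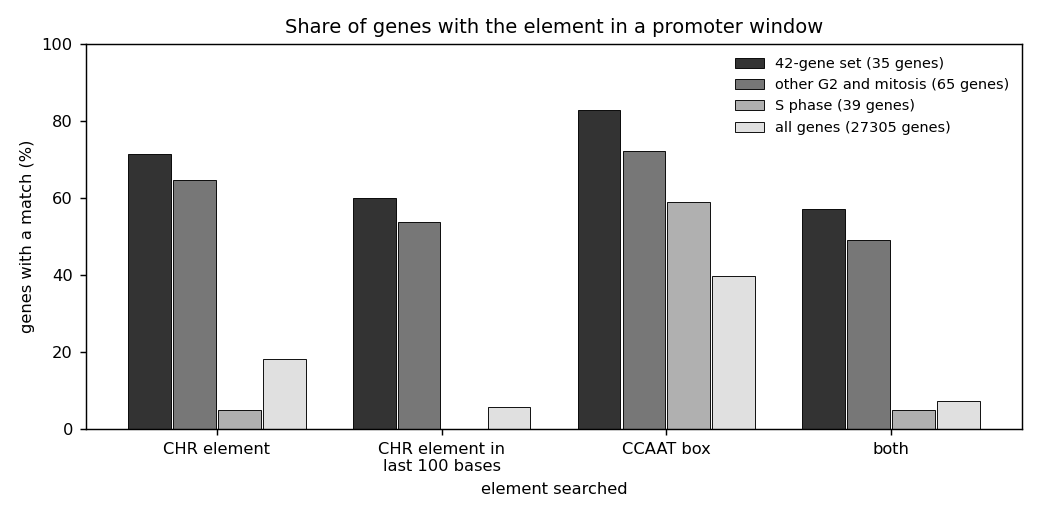
Percent of genes with a CHR element, a CHR element in the last 100 bases of the window, a CCAAT box, or both CHR and CCAAT, in a 300-base promoter window, for the G2 and mitosis genes (35 with a window), other G2 and mitosis genes, S phase genes and all genes. Bars start at 0; the CHR bar of the G2 and mitosis genes stands at 71.4% and that of all genes at 18.2%.

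Depth lay between 5.64 and 28.2 M counts (median 20.5 M), and 3 libraries held fewer than 10 M: replicate 2 of WT 0 h, of KO 0 h and of WT 36 h. The fewest counts of any of the 42 genes in any library was 29. Levels are TMM-scaled CPM, a gene's counts relative to the library's depth. All log2 changes and their tests come from 1 edgeR quasi-likelihood fit of all 30 libraries, with a call at an adjusted p under 0.05. The 12 T cell markers summed to between 3988 and 6554 CPM in the libraries, and each had a mean of at least 1 CPM. Of 7 B cell, 8 monocyte, 7 erythroid and 7 adherent line markers, 2, 3, 1 and 1 reached that mean, with sums of at most 50.4, 46.3, 5.28 and 6.50 CPM and HBA1 at 0 throughout. SLAMF6 itself lay between 19 and 112 CPM in the WT libraries and between 18.2 and 149 CPM in the KO libraries, and a count per gene cannot show the loss of 1 isoform. Within groups, a chi-square comparison of counts over genes (per degree of freedom) set 4 libraries apart from both other replicates: KO 6 h replicate 2 (33.02 and 38.11, against 8.195 for the other pair), WT 24 h replicate 3 (37.43 and 31.39 against 4.151), KO 12 h replicate 1 (24.33 and 26.62 against 13.58) and KO 24 h replicate 3 (24.7 and 23.98 against 8.557). KO 12 h replicate 1 had the highest level of its group for 0 of the 42 genes, and WT 36 h replicate 1, which was not set apart over all genes, for 32. KO 6 h replicate 2 had the highest level of that group for 38 of the 42 genes, and its summed level was 6884 CPM against 5065 and 5326 CPM in the other replicates.

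In WT cells the G2 and mitosis transcripts slipped during the first 12 h and then fell steeply. The 42 genes together stood at 9324 ± 199.7 CPM at 0 h (mean ± SD, n = 3), 7815 ± 89.3 at 6 h, 7048 ± 66.2 at 12 h, 2834 ± 78.9 at 24 h and 2150 ± 195 at 36 h. At 6 h 16 of 42 genes were lower than at 0 h, where 10.5% of all 21554 tested genes were, and the median log2 change of the 42 was -0.26. At 12 h 25 were lower (15.6% of all genes) with a median of -0.44. At 24 h 41 were lower (17%) with a median of -1.93, and at 36 h again 41 (19%) with -2.33. Over all tested genes the median log2 change was 0.12 at 12 h and between 0.01 and 0.03 at the other times. No gene of the 42 was higher at 6, 24 or 36 h by edgeR or DESeq2, with 1, 0 and 0 higher at an unadjusted p under 0.05. At 12 h edgeR called 1 gene, CENPF, higher (14.8% of all genes). DESeq2 called 2 higher there, and 2 were higher at an unadjusted p under 0.05. The 6 h count was 10 without WT 6 h replicate 2 and 25 with only the compared libraries in the fit. In RNA from whole cultures, fewer cells in G2 or mitosis and less transcript per cell cannot be told apart.

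The step between 12 and 24 h carried most of the fall. From 6 to 12 h 7 of the 42 genes fell in WT (5.64% of all genes) and the median step was -0.22. From 12 to 24 h 41 fell (7.25% of all genes), with a median of -1.51, and from 24 to 36 h 19 fell (2.57%), with -0.42. The counts for the steps from 6 to 12 h and from 24 to 36 h depended on single libraries. The first count was 3 without WT 6 h replicate 3 or WT 12 h replicate 2 and 4 without WT 12 h replicate 1 or with DESeq2 size factors, and 16 with only the compared libraries in the fit. The last was 9, 7 and 9 without WT 24 h replicate 2, WT 36 h replicate 2 or WT 36 h replicate 3, and 6 without the libraries under 10 M. The 45 S phase genes encode the replication machinery. In WT 40, 43, 44 and 42 of them were lower at 6, 12, 24 and 36 h (10.5%, 15.6%, 17% and 19% of all genes). The S phase genes had medians of -0.68, -1.15, -1.81 and -1.76. Their median step was -0.45 from 6 to 12 h, -0.47 from 12 to 24 h and -0.03 from 24 to 36 h. The plot of library medians sets both lists side by side, with the S phase genes already near -0.69 at 6 h in WT.

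**Figure D2:**
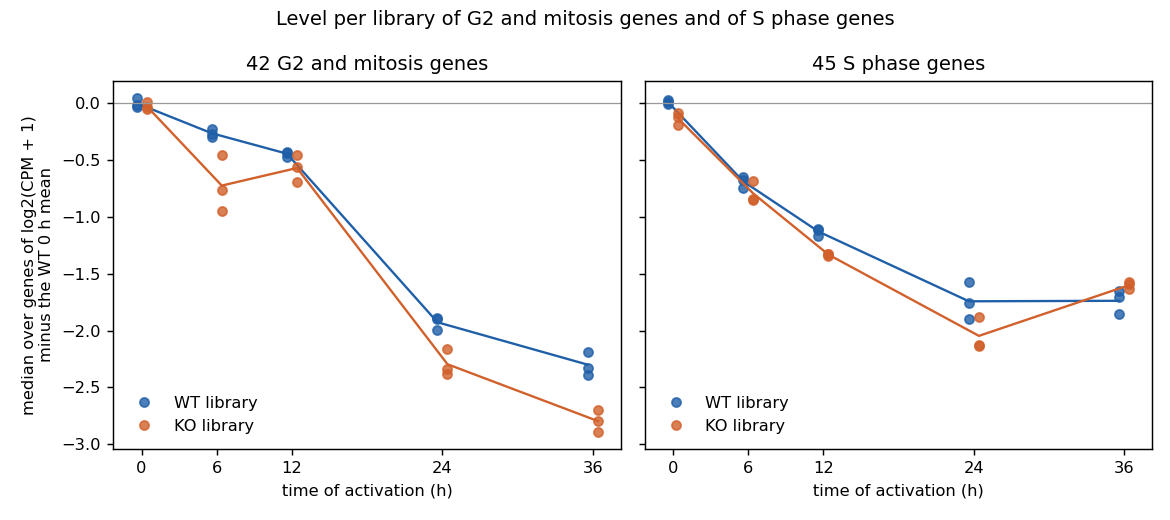
Median over genes of log2(CPM + 1) minus the mean of the WT 0 h libraries (vertical axis) against hours of activation, with a point for each library and lines through group means, for the 42 G2 and mitosis genes (left) and 45 S phase genes (right). In WT the left panel goes from -0.27 at 6 h to -1.93 at 24 h and the right panel from -0.69 to -1.74; the 3 KO libraries at 6 h spread in the left panel.

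Among the genes that start mitosis, 5 of 7 were lower in WT at 6 h, 4 at 12 h and all 7 at 24 and 36 h. The shares of all genes were 10.5%, 15.6%, 17% and 19%. CDK1, the mitotic kinase, lies at chr10:60778331-60794852, plus strand, GENCODE 29 on GRCh38 as for all gene positions. It stood in WT at 569.7, 636 and 519 CPM at 0 h, 426, 429 and 442 at 6 h, 353, 358 and 332 at 12 h, 119, 135 and 142 at 24 h and 109, 91.8 and 97.6 at 36 h. In KO it stood at 444, 551 and 493 CPM at 0 h, 285, 339 and 296 at 6 h, 259, 284 and 303 at 12 h, 65.8, 80.9 and 76.8 at 24 h and 73.8, 52.6 and 70.1 at 36 h. In both genotypes each later group lay wholly below 0 h, and from 6 h on every KO library lay below every WT library. The log2 change at 36 h was -2.53 (SE 0.119, adjusted p = 4.57e-18) in WT and -2.92 (SE 0.121, adjusted p = 1.25e-19) in KO. CCNB1, cyclin B1, lies at chr5:69167010-69178245, plus strand. It was first called at 24 h: 653, 602 and 619 CPM at 0 h, 581, 612 and 565 at 6 h, 532, 544 and 512 at 12 h, 185, 188 and 215 at 24 h and 144, 103 and 130.2 at 36 h in WT. The KO libraries held 515, 456 and 560.3 CPM at 0 h, 397, 573 and 407 at 6 h, 418, 424 and 485 at 12 h, 124, 145 and 155 at 24 h and 83.98, 65.7 and 83.8 at 36 h. Its libraries at 6 h overlapped those of 0 h in both genotypes, and the changes at 6 and 12 h were not called (adjusted p = 0.677 and 0.149 in WT). At 24 h it was 3.19-fold lower in WT and 3.61-fold lower in KO. FOXM1, a transcription factor of the programme, lies at chr12:2857681-2877155, minus strand. It went in WT from 51.2, 46.5 and 57.2 CPM at 0 h to 33.9, 35.6 and 34.1 at 6 h, 29.5, 28.5 and 25.7 at 12 h, 12.1, 10.2 and 8.32 at 24 h and 9.02, 6.67 and 10.3 at 36 h. In KO the values were 60.8, 42.8 and 65.8 CPM at 0 h, 25.2, 33.9 and 27.98 at 6 h, 22.3, 34.5 and 26.5 at 12 h, 6.11, 7.42 and 5.48 at 24 h and 7.26, 7.40 and 7.59 at 36 h. FOXM1 was lower from 6 h on in both genotypes, though the WT call at 6 h was lost without WT 0 h replicate 3 (adjusted p = 0.0612). Its log2 changes at 24 h were -2.34 (SE 0.177, adjusted p = 7.81e-13) in WT and -3.17 (SE 0.183, adjusted p = 6.46e-16) in KO. FOXM1 exons overlap those of ITFG2 on the opposite strand over 15.9% of their length. CCNA2 and CCNB2, cyclins A2 and B2, had log2 changes of -2.69 and -2.11 at 36 h in WT, against -1.35 and -1.64 for the phosphatases CDC25B and CDC25C.

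The 9 checkpoint and exit genes held both the largest and the smallest change of the 42 at 36 h in WT. CDC20, the activator of the anaphase-promoting complex, lies at chr1:43358955-43363203, plus strand. It was at 429, 421 and 468 CPM in the WT libraries at 0 h, 286, 314 and 249 at 6 h, 263, 235 and 278 at 12 h, 75.7, 89.8 and 71.7 at 24 h and 54.9, 38.7 and 48.9 at 36 h. The KO libraries held 423, 377 and 418 CPM at 0 h, 200.3, 280.3 and 186 at 6 h, 263, 297 and 311 at 12 h, 76.3, 79.7 and 85.2 at 24 h and 38.5, 33.3 and 32.4 at 36 h. Every later group lay below 0 h, and at 36 h CDC20 was 9.20-fold lower in WT (adjusted p = 6.02e-19) and 11.7-fold lower in KO (adjusted p = 5.24e-20). BUB1B, the checkpoint kinase-like protein BUBR1, lies at chr15:40161023-40221136, plus strand. It was at 215, 187 and 199 CPM at 0 h, 131, 123 and 127 at 6 h, 111, 122 and 129 at 12 h, 41.7, 40.2 and 41.5 at 24 h and 30.8, 25.8 and 27.99 at 36 h in WT. KO had 183, 171 and 178 CPM at 0 h, 91.4, 115 and 95.7 at 6 h, 108, 123 and 111 at 12 h, 30.7, 27.3 and 32 at 24 h and 23.3, 23.9 and 24.97 at 36 h, with no overlap between 0 h and any later time in either genotype. BUB3, a checkpoint protein that binds BUB1 and BUB1B, lies at chr10:123154277-123170467, plus strand. It moved less: 742, 677 and 685 CPM at 0 h, 687, 708 and 638 at 6 h, 560.5, 600.4 and 578 at 12 h, 464, 499 and 542 at 24 h and 445, 381 and 417 at 36 h in WT. In KO its levels were 588, 641 and 607 CPM at 0 h, 479, 646 and 509.5 at 6 h, 468, 471 and 522 at 12 h, 350.4, 358 and 399.8 at 24 h and 367, 319 and 400.1 at 36 h. BUB3 was called lower at 12, 24 and 36 h in both genotypes, by 1.69-fold in WT and 1.69-fold in KO at 36 h. The 12 h calls were lost without WT 0 h replicate 1 or 3 or WT 12 h replicate 1, 2 or 3 (adjusted p up to 0.0796) and without KO 0 h replicate 2 or KO 12 h replicate 1 or 2 (adjusted p up to 0.0539). PTTG1, securin, lies at chr5:160421822-160428744, plus strand. It was the exception in WT: 181, 162 and 164 CPM at 0 h, 170.3, 162 and 162 at 6 h, 213, 207 and 202 at 12 h, 129, 136 and 186 at 24 h and 155, 117 and 137 at 36 h. KO libraries of PTTG1 held 140.5, 136 and 154 CPM at 0 h, 99.4, 142 and 102 at 6 h, 162, 169 and 221 at 12 h, 116, 127 and 84.4 at 24 h and 75.3, 63.03 and 74.05 at 36 h. At 12 h all 3 libraries of each genotype stood above 0 h without a call (adjusted p = 0.129 and 0.0669), and at 24 h the WT libraries overlapped those of 0 h. The WT changes at 24 and 36 h were -0.17 (SE 0.146, adjusted p = 0.426) and -0.31 (SE 0.146, adjusted p = 0.0966), and the KO changes -0.40 (SE 0.147, adjusted p = 0.0347) and -1.02 (SE 0.148, adjusted p = 8.46e-07). The KO call at 24 h was lost without KO 0 h replicate 1 or 3 or KO 24 h replicate 3 (adjusted p = 0.0953, 0.2096 and 0.3494). The other 5 genes of this role, BUB1, TTK, MAD2L1, SGOL1 and UBE2C, had changes between -2.06 (MAD2L1, a checkpoint protein) and -2.54 (TTK, the checkpoint kinase MPS1) at 36 h in WT.

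All 7 kinase and chromosomal passenger genes were lower at 24 and 36 h in both genotypes (17% and 19% of all genes in WT, 16.7% and 18% in KO). PLK1, Polo-like kinase 1, lies at chr16:23677656-23690367, plus strand. It was at 334, 311 and 359 CPM at 0 h, 261, 267 and 262 at 6 h, 227, 215 and 235 at 12 h, 80.03, 76.1 and 68.9 at 24 h and 65.4, 54.01 and 58.4 at 36 h in WT. In KO it was at 345, 319 and 354 CPM at 0 h, 167, 253 and 152 at 6 h, 216, 255 and 240.2 at 12 h, 64.5, 60.7 and 71.6 at 24 h and 35.4, 29.6 and 34.9 at 36 h. KO lay wholly below WT at 6 and 36 h and overlapped it at 0, 12 and 24 h, and at 36 h the changes from 0 h were -2.49 (SE 0.131, adjusted p = 7.95e-17) in WT and -3.35 (SE 0.136, adjusted p = 7.54e-20) in KO. AURKB, the passenger complex kinase, lies at chr17:8204733-8210600, minus strand. It was at 154, 155 and 166 CPM at 0 h, 126, 135 and 117 at 6 h, 104, 95.9 and 113 at 12 h, 29.3, 38.4 and 30.4 at 24 h and 29.01, 18.7 and 22.9 at 36 h in WT. KO levels were 151, 145 and 163 CPM at 0 h, 80.3, 106 and 70.04 at 6 h, 79.3, 91.3 and 100.3 at 12 h, 18.6, 18.8 and 18.5 at 24 h and 23.1, 15.2 and 14.7 at 36 h. AURKB was 4.86-fold lower at 24 h in WT and 8.21-fold lower in KO, and its KO libraries at 24 h lay below all WT libraries of that time. TPX2, which activates Aurora A on the spindle, lies at chr20:31739271-31801805, plus strand. It was at 416, 378 and 417 CPM at 0 h, 325, 319 and 323 at 6 h, 303, 286 and 294 at 12 h, 106, 109 and 101 at 24 h and 88.6, 61.4 and 82.3 at 36 h in WT. Its KO values were 409.8, 331 and 415 CPM at 0 h, 206, 289.9 and 218 at 6 h, 240.1, 273 and 252 at 12 h, 74.7, 79.7 and 73.7 at 24 h and 56.5, 42.6 and 52.1 at 36 h, below WT at every later time without overlap. BIRC5 (survivin, a passenger subunit) had the largest change of the 42 genes at 6, 12 and 24 h in WT, with -0.87, -1.19 and -2.51. INCENP, the scaffold of the same complex and the gene with the lowest level per kb of exon at 0 h in WT (4.27 CPM per kb), changed by -1.19 in WT and -2.52 in KO at 36 h. AURKA and PLK4, the kinases of the spindle poles and of centriole copying, reached -2.52 and -2.46 in WT at 36 h.

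The kinetochore genes were called lower in WT in 0 of 5 cases at 6 h and at 12 h, and in 5 of 5 at 24 h. Of all genes, 10.5%, 15.6% and 17% were lower at these times. In so small a set, 0 calls do not set the role apart from all genes. CENPF, a large kinetochore and nuclear matrix protein, lies at chr1:214603195-214664588, plus strand. It moved the other way first: 235, 202 and 205 CPM at 0 h, 246, 253 and 298 at 6 h, 315, 335 and 284 at 12 h, 99.2, 99.5 and 117 at 24 h and 87.1, 67.6 and 65.9 at 36 h in WT. In KO it stood at 201, 211 and 182 CPM at 0 h, 111, 157 and 125 at 6 h, 178, 177 and 208 at 12 h, 66.8, 69.5 and 77.2 at 24 h and 51, 50.1 and 41.7 at 36 h. All WT libraries of 6 and 12 h lay above those of 0 h, while all KO libraries of 6 h lay below theirs. CENPF was 1.45-fold higher at 12 h in WT (log2 0.54, SE 0.122, adjusted p = 0.00083), and in KO it was 1.51-fold lower at 6 h (log2 -0.60, SE 0.123, adjusted p = 0.000278) and -0.08 at 12 h (adjusted p = 0.704). At 24 h it was lower in both, with -1.03 in WT and -1.48 in KO. The centromeric histone CENPA had the largest value above 0 at 6 h in WT, 0.37, without a call (adjusted p = 0.269), and the motor CENPE and the NDC80 complex subunits NUF2 and NDC80 had values between -0.24 and 0.09. At 36 h these 4 lay between -2.10 and -1.995 in WT. In KO edgeR called 4 of the 5 lower at 6 h (13.2% of all genes) and 1 at 12 h (13.7%).

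Of 7 spindle genes, 1 was lower in WT at 6 h (10.5% of all genes), 2 at 12 h (15.6%) and 7 at 24 and 36 h (17% and 19%). NUSAP1, which bundles spindle microtubules near chromatin, lies at chr15:41332694-41381050, plus strand. It stood at 418, 411 and 391 CPM at 0 h, 287, 287 and 299 at 6 h, 226, 221 and 213 at 12 h, 76.6, 72.2 and 78.7 at 24 h and 57.9, 54.98 and 60.9 at 36 h in WT. KO libraries held 423, 405 and 426 CPM at 0 h, 144, 223 and 149 at 6 h, 164, 209.6 and 204 at 12 h, 45.5, 45.9 and 43.1 at 24 h and 44.6, 38.97 and 46.3 at 36 h. The genotypes overlapped at 0 h and KO lay below WT in every library from 6 h on. The changes at 6 h were -0.48 (SE 0.113, adjusted p = 0.00151) in WT and -1.28 (SE 0.115, adjusted p = 7.53e-11) in KO, the latter the largest of the 42 genes at that time. In GENCODE 29 a second gene on the same strand shares 62.2% of the exon bases of NUSAP1, and for PRC1 such a gene shares 57.6%, so the counts of these 2 genes are uncertain. Other genes had smaller overlaps, among them BUB1B (10.2%, same strand) and SGOL1 and PLK1 (17.7% and 11.6%, opposite strand). KIF11, the motor that separates the poles, was at -2.24 in WT and -2.80 in KO at 36 h, and ASPM, a spindle pole protein, at -1.75 and -2.55. DLGAP5, which stabilises kinetochore fibres, had the largest step of the 42 between 12 and 24 h in WT, -1.98 (SE 0.116, adjusted p = 2.31e-14). KIF2C, KIF4A and HMMR, 2 kinesins and a spindle-associated protein, had values at 36 h from -2.24 to -1.94 in WT.

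Cytokinesis genes were lower in 1, 4, 5 and 5 of 5 cases at 6, 12, 24 and 36 h in WT (10.5%, 15.6%, 17% and 19% of all genes). KIF23, a subunit of centralspindlin, lies at chr15:69414246-69448427, plus strand. It was at 135, 145 and 127 CPM at 0 h, 123, 122 and 116 at 6 h, 89.4, 85.7 and 87.2 at 12 h, 37.5, 41.4 and 32.98 at 24 h and 35.4, 32.9 and 32.98 at 36 h in WT. In KO the levels were 121, 124 and 133 CPM at 0 h, 101, 118 and 98.1 at 6 h, 81.01, 86.1 and 77.1 at 12 h, 23.6, 23.1 and 30.5 at 24 h and 23.9, 25.2 and 23.1 at 36 h, and the genotypes overlapped up to 12 h and were apart at 24 and 36 h. KIF20A, the motor that carries the passenger complex to the midzone, lies at chr5:138178719-138187715, plus strand. It was at 135, 121 and 133 CPM at 0 h, 29, 27.1 and 24.9 at 24 h and 19.04, 15.7 and 18.7 at 36 h in WT, and at 129.7, 123 and 132, 12.7, 12.7 and 11.6 and 10.03, 4.47 and 8.94 in KO. Its fall of 16.4-fold in KO at 36 h (log2 -4.04, SE 0.204, adjusted p = 1.78e-17) was the largest of the 42 genes in either genotype, against 7.23-fold in WT. PRC1, ANLN (anillin) and ECT2 (the exchange factor that activates RhoA at the division plane) had log2 changes of -2.85, -2.60 and -2.58 in WT and -3.46, -3.01 and -3.37 in KO at 36 h.

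Both chromosome genes, TOP2A and MKI67, were lower at 24 and 36 h in both genotypes (17% and 19% of all genes in WT, 16.7% and 18% in KO). TOP2A, the topoisomerase that untangles sister chromatids, lies at chr17:40388516-40417950, minus strand. It was at 966, 925 and 904 CPM at 0 h, 779, 804 and 857 at 6 h, 764, 871 and 798 at 12 h, 236, 224 and 205 at 24 h and 168, 142 and 162 at 36 h in WT. The KO libraries held 885, 841 and 834 CPM at 0 h, 467, 649 and 491 at 6 h, 611, 729.5 and 766 at 12 h, 169, 177 and 172 at 24 h and 125, 109 and 116 at 36 h, and at 6 h replicate 2 lay nearest to WT. The WT change at 6 h was -0.20 (adjusted p = 0.184) and that at 36 h -2.56 (SE 0.108, adjusted p = 2.59e-19). MKI67, the Ki-67 antigen that coats mitotic chromosomes, lies at chr10:128096659-128126385, minus strand. It was at 297, 243 and 295 CPM at 0 h, 266, 250.1 and 308 at 6 h, 172, 198 and 205 at 12 h, 70.7, 65.3 and 48.9 at 24 h and 52.1, 44.8 and 48.1 at 36 h in WT. KO had 265, 204 and 257 CPM at 0 h, 204, 254 and 241 at 6 h, 189, 195 and 203 at 12 h, 49.1, 44.6 and 47.9 at 24 h and 40.5, 42.8 and 35.7 at 36 h. At 6 h its libraries overlapped those of 0 h in both genotypes, and at 36 h it was 5.75-fold lower in WT and 6.12-fold lower in KO. Per kb of exon, CCNB1 (244 CPM per kb), CDC20 (216), UBE2C (197), CDK1 (146) and TOP2A (145) had the highest levels at 0 h in WT. At 36 h PTTG1 (67.7 CPM per kb), BUB3 (49.9) and CCNB1 (49.2) led. The plot of gene levels shows the 10 genes fixed for display, and the heat map all 42.

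**Figure D3:**
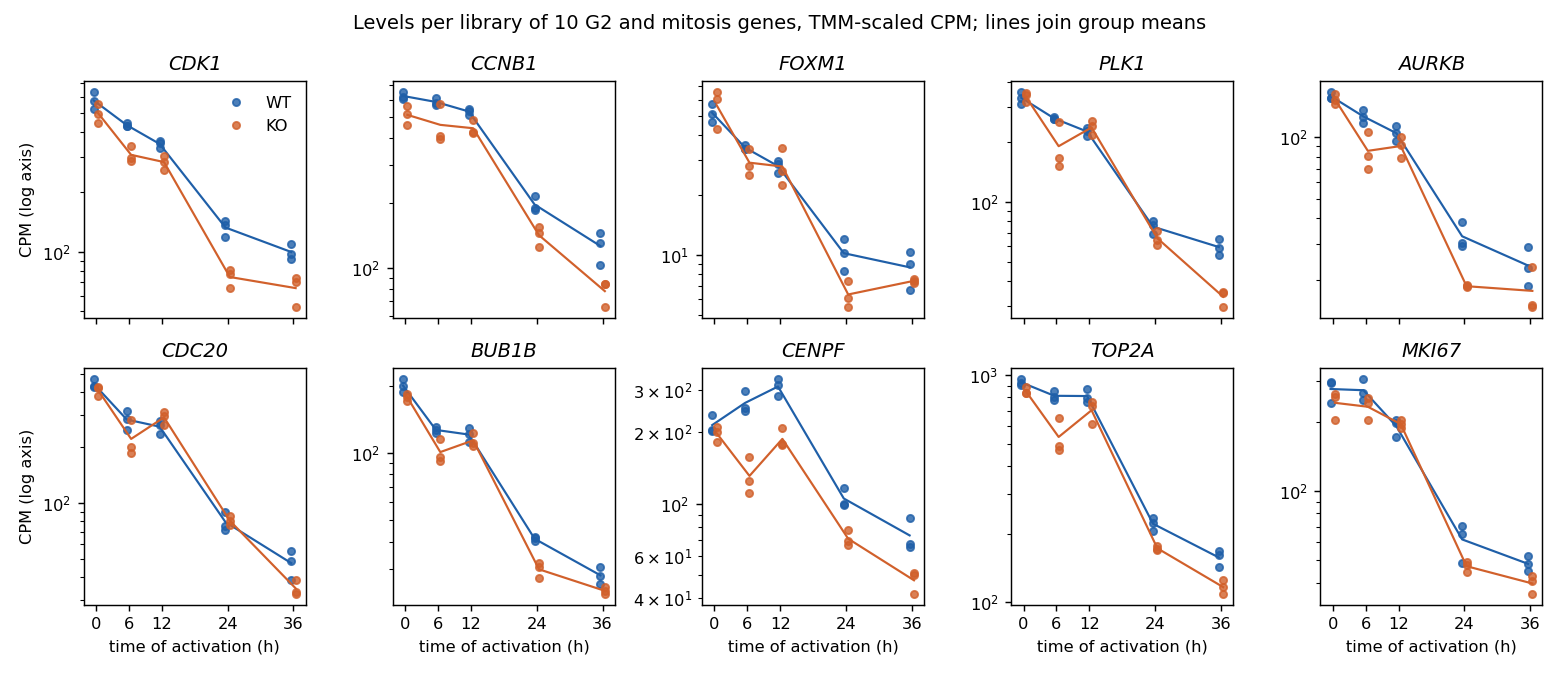
TMM-scaled CPM on a log axis against hours of activation for 10 G2 and mitosis genes, with a point for each of the 3 libraries of a group (WT blue, KO orange) and lines through group means. CENPF is the gene whose WT libraries at 12 h (284 to 335 CPM) lie above those of 0 h (202 to 235 CPM).

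**Figure D4:**
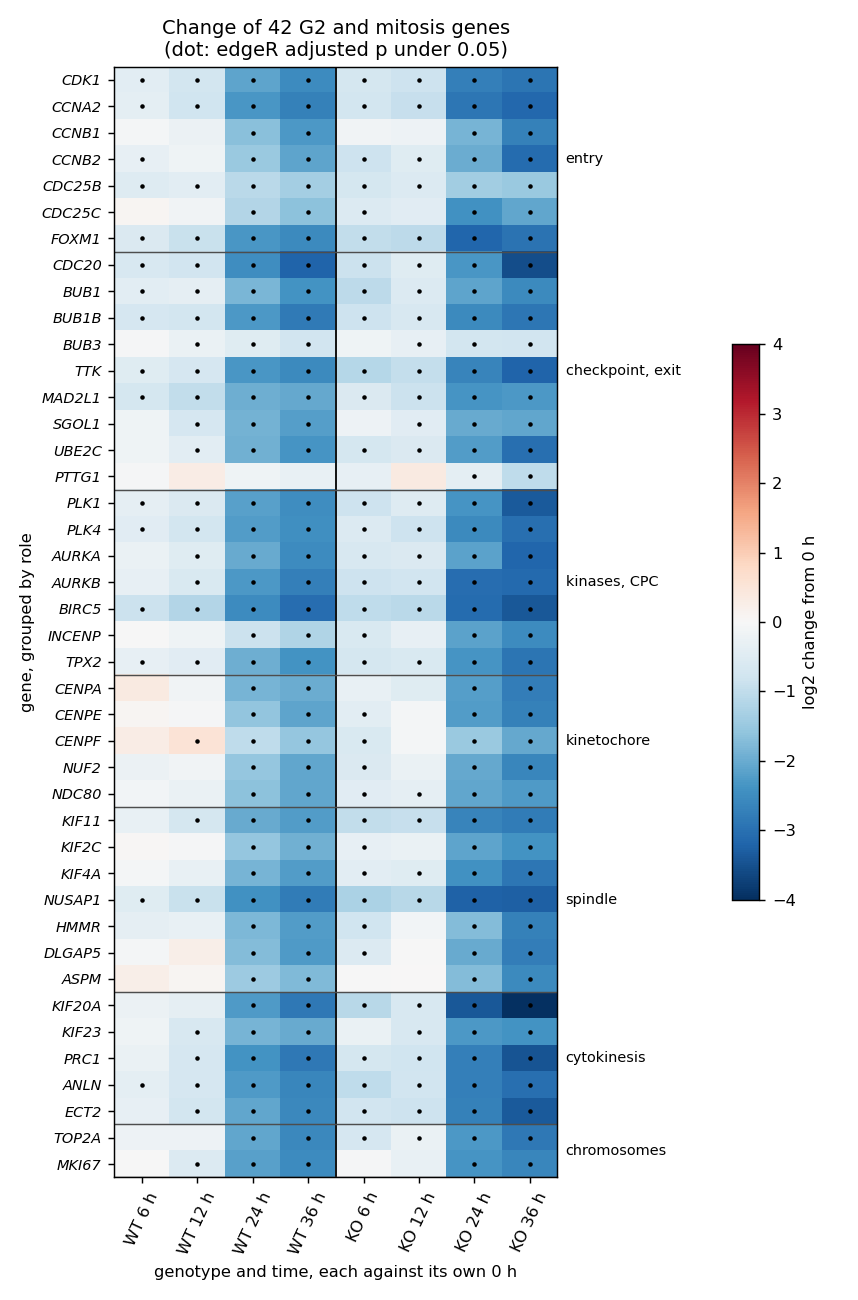
Log2 change from the 0 h libraries of the same genotype for each of the 42 genes (rows, by role; CPC, chromosomal passenger complex) at 6, 12, 24 and 36 h in WT and KO (columns), with a dot where edgeR's adjusted p is under 0.05. Dots cover 41 rows at 24 and 36 h in WT, where PTTG1 has none, and all 42 rows in KO.

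In KO cells most of the G2 and mitosis transcripts were already lower at 6 h. The summed level of the 42 genes was 8816 ± 158 CPM at 0 h (mean ± SD, n = 3), 5759 ± 984 at 6 h, 6279 ± 547 at 12 h, 2089 ± 98.4 at 24 h and 1559 ± 129 at 36 h. Against KO at 0 h, 34 of 42 were lower at 6 h (13.2% of all genes), 29 at 12 h (13.7%), 42 at 24 h (16.7%) and 42 at 36 h (18%). The medians were -0.68, -0.53, -2.32 and -2.83, and none of the 42 was higher by edgeR or DESeq2, with 0, 1, 0 and 0 higher at an unadjusted p under 0.05. At 6 h the largest changes were in NUSAP1 (-1.28), TTK (-1.13), KIF20A (-1.11) and BUB1 (-1.05), the last a checkpoint kinase. From 6 to 12 h 8 genes rose (5.08% of all genes) and 1 fell (5.76%): HMMR, PTTG1, CENPF, BUB1, DLGAP5, CDC20, TOP2A and CCNB2 rose and KIF23 fell. Of these, HMMR, PTTG1 and DLGAP5 were called without each library in turn. HMMR went from 47.4, 67.1 and 49.96 CPM at 6 h to 68.4, 98.4 and 101 at 12 h, a log2 step of 0.70 (SE 0.144, adjusted p = 0.000922), and its libraries did not overlap. That count of 8 was 14 without KO 6 h replicate 2, 3 without KO 6 h replicate 1, 4 without KO 6 h replicate 3, 5 without KO 12 h replicate 2, and 4 without KO 12 h replicate 3 or with only the compared libraries. From 12 to 24 h all 42 fell (8.20% of all genes; median -1.77), and from 24 to 36 h 21 did (3.35%; median -0.47). In that last step the largest changes were -1.21 in CDC20, -1.08 in CCNB2, -1.03 in AURKA and -0.98 in PLK1. Over the same step 24 of 45 S phase genes rose in KO (4.07% of all genes did) and 0 fell, with a median of 0.39.

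The direct comparison of KO with WT asks whether losing isoform 1 goes with a different level of these transcripts, and more than 20 of the 42 genes were lower in KO at 6, 24 and 36 h. At 0 h 0 of 42 genes were lower by edgeR or DESeq2, with 3 at an unadjusted p under 0.05, and 1 was higher, where 3.11% and 2.96% of all genes were. That gene was INCENP, at 20.2, 16.2 and 20.97 CPM in WT and 29.9, 25.9 and 30.6 in KO, and differed by 0.59 (SE 0.156, adjusted p = 0.0192) on the log2 scale. The call was lost without WT 0 h replicate 1 or 2 or KO 0 h replicate 1 or 3 (adjusted p = 0.0608, 0.1152, 0.1 and 0.1311). The smallest p-values below 0 were those of CCNB1 (-0.29, adjusted p = 0.175), MAD2L1 (-0.24, 0.211) and SGOL1 (-0.25, 0.246). CDC25B and KIF4A followed INCENP above 0 with 0.21 and 0.18 (adjusted p = 0.325 and 0.507). At 6 h 24 of 42 were lower in KO (4.76% of all genes), with a median log2 difference of -0.44, and the count was 11 without KO 6 h replicate 1 or without KO 6 h replicate 3. CENPF led with -1.02 (SE 0.123, adjusted p = 3.33e-07), followed by NUSAP1 with -0.76 (SE 0.113, adjusted p = 1.32e-05) and TOP2A with -0.60 (SE 0.102, adjusted p = 9.12e-05), and in each the KO libraries lay below all WT libraries. At 12 h 3 were lower (5.52% of all genes), with a median of -0.12. These were CENPF (-0.73, SE 0.122, adjusted p = 7.88e-05), DLGAP5 (-0.42, SE 0.11, adjusted p = 0.0108) and CCNB2 (-0.36, SE 0.112, adjusted p = 0.0355), and the count was 1, CENPF, without WT 12 h replicate 1 or KO 12 h replicate 1. It was also 1 without the filter on low counts, and it was 6 by DESeq2, with DESeq2 size factors or with only the compared libraries. CCNB2 also lost its call without WT 12 h replicate 2 or 3 or KO 12 h replicate 2 (adjusted p = 0.0791, 0.0808 and 0.126).

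At 24 h 27 of 42 genes were lower in KO (4.76% of all genes), with a median difference of -0.45. CDK1 had the smallest p, with -0.83 (SE 0.115, adjusted p = 5.2e-06), then NUSAP1 with -0.76 (SE 0.117, adjusted p = 2.66e-05) and CDC25C with -1.21 (SE 0.201, adjusted p = 8.16e-05). CDC25C was at 11.1, 13.6 and 15.6 CPM in WT and 5.30, 6.09 and 5.98 in KO, without overlap, from 34.7, 24.01 and 30.7 and 32.5, 30.5 and 30.6 at 0 h. A fit of the 6 compared libraries alone called 14. At 36 h 29 were lower (6.52% of all genes), with a median of -0.52. CCNB2 led with -1.003 (SE 0.118, adjusted p = 2.11e-07), at 60.7, 52.2 and 58.1 CPM in WT and 30.8, 26.1 and 28.7 in KO, followed by PLK1 with -0.84 (SE 0.129, adjusted p = 1.96e-05) and PTTG1 with -0.95 (SE 0.148, adjusted p = 2.3e-05). KIF20A had the largest difference at 36 h, -1.20 (SE 0.2, adjusted p = 5.55e-05), and -1.13 (SE 0.191, adjusted p = 0.000101) at 24 h. Of 9 genes above 0 at 12 h, none called, INCENP, HMMR and CDC20 had the smallest p (0.41, 0.23 and 0.17; smallest adjusted p = 0.0847). At 6, 24 and 36 h the genes above 0 were CDC25B (0.03 at 6 h and 0.07 at 36 h), HMMR and CDC20 (0.08 and 0.02 at 24 h) with adjusted p of at least 0.809. No gene of the 42 was higher in KO at 6, 12, 24 or 36 h by edgeR or DESeq2, with 0, 1, 0 and 0 higher at an unadjusted p under 0.05. Leaving out each library in turn, 11, 1, 15 and 20 of the genes called at 6, 12, 24 and 36 h were called every time.

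Averaged over the 5 times, 37 of 42 genes were lower in KO (15.3% of all genes) with a median of -0.30, and 33 of the 37 were called without each of the 30 libraries in turn. The smallest p-values were those of CENPF (-0.61, SE 0.0553, adjusted p = 1.43e-10), CCNB2 (-0.50, SE 0.051, adjusted p = 2.37e-09) and CDK1 (-0.49, SE 0.0507, adjusted p = 2.96e-09). The 5 genes not called were CDC25B (0.06), CDC20 (-0.15), INCENP (-0.09), NDC80 (-0.13) and HMMR (-0.11). By role, the average was lower in 6 of 7 entry genes, 8 of 9 checkpoint and exit genes, 6 of 7 kinase and passenger genes, 4 of 5 kinetochore genes, 6 of 7 spindle genes, 5 of 5 cytokinesis genes and 2 of 2 chromosome genes. The genotype plot shows all 42 differences at each time. Genotype and any other difference between the edited and unedited cells cannot be told apart in this design.

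**Figure D5:**
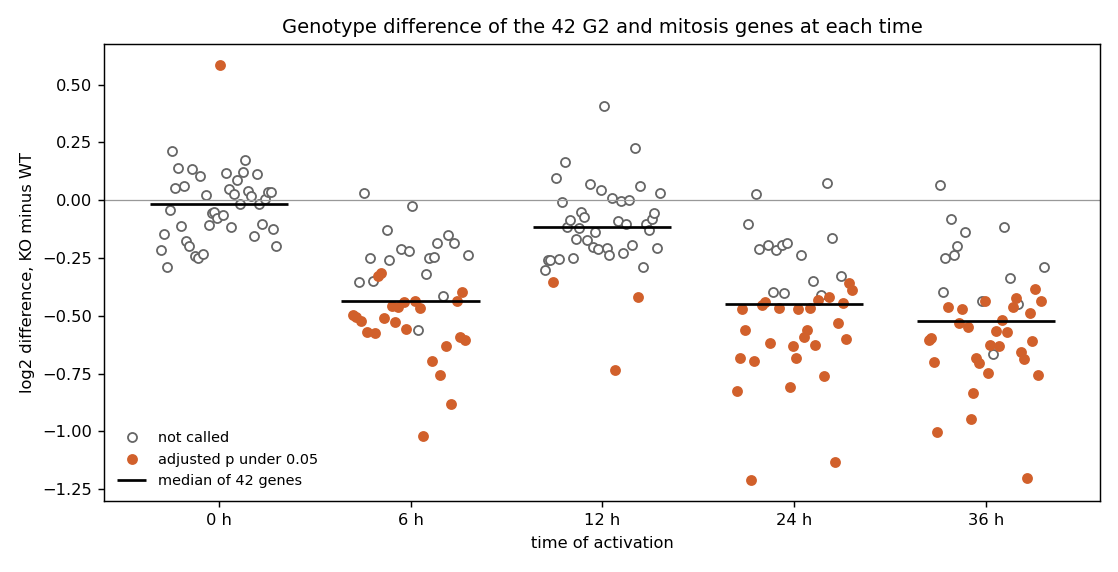
Log2 difference, KO minus WT, of each of the 42 genes (points, ordered by role from left to right) at 0, 6, 12, 24 and 36 h; filled points have an edgeR adjusted p under 0.05 and black lines are medians. The medians are -0.02, -0.44, -0.12, -0.45 and -0.52, and the filled point above 0 at 0 h is INCENP.

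Whether the change from 0 h itself differed between genotypes was tested as an interaction, which shares the 0 h libraries across times. The change to 6 h was more negative in KO for 4 of 42 genes (1.37% of all genes): CENPF, NUSAP1, ANLN and KIF20A, of which CENPF and NUSAP1 were called without each library in turn. This count was 14 without KO 6 h replicate 2, and 2 without WT 0 h replicate 2 or 3, WT 6 h replicate 1 or 3, KO 0 h replicate 3, KO 6 h replicate 1 or the libraries under 10 M. It was 9 by DESeq2 and 8 with only the compared libraries. At 12 h 0 genes were called by edgeR (0.650% of all genes were lower), with 1 at an unadjusted p under 0.05 and 1 by DESeq2. At 24 h 8 were called (1.70%): INCENP, NUSAP1, CDC25C, KIF20A, CDK1, AURKB, CENPE and CCNA2, the first 4 of them without each library in turn. The largest was INCENP with -1.27 (SE 0.23, adjusted p = 0.000755), whose libraries went from 20.2, 16.2 and 20.97 to 9.90, 10.5 and 11.5 CPM in WT and from 29.9, 25.9 and 30.6 to 5.78, 5.67 and 8.35 CPM in KO. That count was 4 or 5 without any 1 of WT 0 h replicates 1, 2 and 3, WT 24 h replicate 2, KO 0 h replicates 1, 2 and 3 and KO 24 h replicate 1, and 5 without the libraries under 10 M or with only the compared libraries. It was 14 by DESeq2. At 36 h 15 were called (4.62%), led by CCNB2 with -0.96 (SE 0.163, adjusted p = 0.000188) and INCENP with -1.33 (SE 0.233, adjusted p = 0.000276). The count was 9, 7 and 9 without WT 36 h replicate 1, KO 0 h replicate 1 and KO 0 h replicate 3, and 8 without the libraries under 10 M. All of these differences were lower in KO, and no gene had a change called as less negative in KO by edgeR or DESeq2, with 0 at an unadjusted p under 0.05 at each time. Jointly over the 4 later times 13 genes differed (9.84% of all genes), with INCENP, NUSAP1 and CCNB2 first (adjusted p = 0.000106, 0.00142 and 0.00176). The joint count was 25 without KO 6 h replicate 2 and 20 without KO 12 h replicate 1. The step from 6 to 12 h did not use the 0 h libraries: its difference between genotypes was above 0 in all 42 genes, with a median of 0.28. The share of all genes above 0 is not given here. The 42 genes were measured in the same libraries, so they are not 42 separate observations. Of the 42, 0 were called by edgeR (0.413% of all genes were higher) and 0 by DESeq2, and 11 had an unadjusted p under 0.05. With 1 library left out, 8 were called without KO 6 h replicate 2 and 2 without KO 12 h replicate 1.

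Other genes of the pathway were counted from lists. For comparison, 10.5%, 15.6%, 17% and 19% of all genes were lower at 6, 12, 24 and 36 h in WT. In KO 13.2%, 13.7%, 16.7% and 18% were. Of 79 tested genes in a list of further G2 and mitosis genes, 23, 60, 78 and 77 were lower at 6, 12, 24 and 36 h in WT, and 57, 58, 78 and 78 in KO. Their medians at 24 h were -1.70 in WT and -2.07 in KO. Of the 79, 27, 36 and 28 were lower in KO than in WT at 6, 24 and 36 h (4.76%, 4.76% and 6.52% of all genes). The 3 smallest p-values at 24 h in WT belonged to CDCA5 (sororin, which guards cohesion; -2.43), CENPM (a centromere protein; -3.19) and the kinesin KIF18B (-2.35). The 1 gene of this list called higher there was DEPDC1, named after its values were seen. It was near 0 throughout, with means of 0.0129 CPM at 0 h and 0.478 at 24 h. A list of anaphase-promoting complex genes held its subunits and the activator FZR1, but not CDC20. Of its 15 genes, 7 were lower at 24 h and 9 at 36 h in WT, with medians of -0.29 and -0.41. DREAM, B-MYB and E2F genes, the regulators of the programme, were lower in 10, 11, 11 and 14 of 20 cases at 6, 12, 24 and 36 h in WT and in 11, 12, 15 and 15 in KO. The 3 smallest p-values at 24 h in WT were those of the repressor E2F7 (-2.84), of MYBL2, which encodes B-MYB (-2.67), and of E2F2 (-2.67), and in KO the same 3 genes were at -3.13, -3.77 and -3.80. Of the 8 G1 cyclins and kinases, 4 were lower and 3 higher at 24 h in WT (17% and 17.3% of all genes).

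Genes that restrain CDKs or the cell cycle were higher in 5, 6, 4 and 3 of 11 tested cases at 6, 12, 24 and 36 h in WT and in 6, 5, 5 and 4 in KO, with 1, 1, 2 and 2 lower in WT and 3, 2, 4 and 4 in KO. Of all genes, 11.8%, 14.8%, 17.3% and 20.1% were higher at these times in WT and 14%, 14.1%, 16.1% and 18.6% in KO. The shares lower were 10.5%, 15.6%, 17% and 19% in WT and 13.2%, 13.7%, 16.7% and 18% in KO. CDKN1A, the CDK inhibitor p21, stood in WT at 4.38 ± 1.67 CPM at 0 h (mean ± SD, n = 3), 47 ± 3.62 at 6 h, 33.2 ± 4.68 at 12 h, 7.66 ± 0.391 at 24 h and 4.80 ± 1.57 at 36 h. In KO it stood at 3.41 ± 0.347, 157 ± 31.5, 99.7 ± 9, 26.5 ± 6.19 and 29.2 ± 3.21 CPM. It rose in both genotypes at 6 h and it was higher in KO at 6, 12, 24 and 36 h, by 1.74 (SE 0.174, adjusted p = 6.97e-09) at 6 h and 2.54 (SE 0.203, adjusted p = 4.96e-11) at 36 h. The CDKN1A change from 0 h differed between genotypes at each later time, with 1.99 (SE 0.298, adjusted p = 0.000103) at 6 h and 2.78 (SE 0.316, adjusted p = 2.95e-07) at 36 h. At 6 h this difference was also called above 0 for GADD45A (2.55, SE 0.376, adjusted p = 8.94e-05). It was called below 0 for CDKN1B (-1.03, SE 0.236, adjusted p = 0.00985) and BTG2 (-0.94, SE 0.233, adjusted p = 0.0194), so the list did not move in 1 direction. BTG1, an antiproliferative gene, changed by 2.20 at 6 h and 2.95 at 36 h in WT and by 2.58 and 3.56 in KO. BTG2 changed by 1.61 at 6 h and 3.125 at 36 h in WT and by 0.68 and 3.03 in KO. CDKN2D, the inhibitor p19, was at -2.43 and -3.22 at 24 h. At 12 h, when the difference of the 42 genes between genotypes had a median of -0.12, the CDKN1A difference was 1.59 (SE 0.176, adjusted p = 7.71e-08). The part of these genes in the change of the 42 was not tested.

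The size of the fall was set beside the promoter letters for the 35 genes that had a window, as a description. Genes without a match may hold variant spellings of the element, which were not searched. In WT at 24 h the 25 genes with a CHR match had a median log2 change of -1.97 (range -2.48 to -0.86) and the 10 without had -1.75 (range -2.34 to -0.17). At 36 h in WT the medians were -2.24 and -2.25, and in KO they were -2.80 and -2.62. Genes without these letters in their windows ran at 36 h in KO from -4.04 (KIF20A) to -1.02 (PTTG1). AURKB is also among them. The AURKB windows reach only to chr17:8210499, short of the gene's annotated 5′ end at 8210600. The bases before that end were not searched. Among the 11600 tested genes with a window, 31.5% of the 531 with a CHR match in the last 100 bases were lower at 24 h in WT, and 21.5% of the 11069 without. With the 42 genes and the further mitosis genes left out, the share was 23.6% of 475.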

How the data were processed

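Total RNA of 30 Jurkat libraries (2 genotypes, 5 times, 3 libraries each) had been sequenced and counted per gene by the authors. Cutadapt, STAR, DESeq2 and the build GRCh37/hg19 are named without versions, per the submitters' processing notes, and the gene counter, its annotation and its use of strand were not given in the sources used here. The authors deposited estimated counts for 54300 gene symbols: 195 symbols had values that were not whole (0.177% of values), none of them among the 42 genes, and these were rounded. Libraries were grouped by the labels' genotype and time. Gene positions (GENCODE 29) and promoter windows (RefSeq) are on GRCh38, and no position comes from the count tables.

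Counts were filtered with filterByExpr (minimum count 10, 21554 genes kept), scaled by TMM and fitted once over all 30 libraries with 10 group means by edgeR 4.0.16 in R 4.3.3. Its quasi-likelihood F test gave the p-values, with Benjamini-Hochberg adjustment over all tested genes within a comparison and calls at an adjusted p under 0.05. The SE of a log2 change was its size divided by the square root of F. Depth ran from 5.64 to 28.2 M counts, and low counts limit precision most in the 3 libraries under 10 M. The edgeR fit was tested on a simulated data set, for the WT change from 0 h to 24 h only. The other comparisons were not tested in this way. Replicate pairs within groups differed by more than counting noise. The 42 genes, the lists and the roles were chosen with earlier results of these data known, and no list gets a test of its own. Full values are given for 10 fixed genes, for the gene of each role with the highest mean level and for genes not called at 24 or 36 h. In each comparison of genotypes the 3 smallest p-values in each direction are named, and for other lists up to 3 per comparison. For the genes that restrain CDKs, every gene called in the 6 h interaction is named. Alternatives were DESeq2 1.42.0, its size factors, no filter, only the compared libraries, no libraries under 10 M, a replicate block and leaving out each library in turn.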

Additional observations from a re-analysis of the deposited data

Results flagged for a closer look

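The results here stand out because the change from 0 h differed between KO and WT in a test of that difference itself, the interaction of genotype and time in edgeR. Of the 42 genes, 4 differed at 6 h (1.37% of all genes were lower in this test), 0 at 12 h (0.650%), 8 at 24 h (1.70%), 15 at 36 h (4.62%) and 13 in the joint test over the later times (9.84% in either direction). With 1 library left out at a time these counts ran from 2 to 14, 0 to 1, 4 to 12, 7 to 14 and 10 to 25. Among the genes described with all their values, the KO change minus the WT change was -0.91 for CENPF and -0.80 for NUSAP1 at 6 h. At 24 h it was -0.61 for CDK1, -0.76 for AURKB and -0.80 for NUSAP1. At 36 h it was -0.86 for PLK1, -0.56 for TPX2 and -0.71 for PTTG1. Each negative value means that the KO change was the lower one. The differences of CDK1, AURKB, TPX2 and PTTG1 lost their call when some single libraries were left out, and those of CENPF, NUSAP1 and PLK1 did not. The counts of NUSAP1 are uncertain because another gene on its strand shares most of its exon bases.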

How the results depend on the processing

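Of the alternatives for the count of called genes in the main direction of each comparison, 319 gave a count within 1.5 times the reported one and 69 did not, and no called value of the 42 genes changed sign. With only the compared libraries in the fit, the count was 25 at 6 h in WT, 16 for the WT step from 6 to 12 h, 4 for the rise from 6 to 12 h in KO, and for KO against WT 6 at 12 h and 14 at 24 h. In that fit the interactions at 6, 12 and 24 h had 8, 1 and 5. DESeq2 gave 6 for KO against WT at 12 h and 9, 1 and 14 for these interactions. DESeq2 size factors gave 4 for the WT step from 6 to 12 h, 6 for KO against WT at 12 h and 1 for the interaction at 12 h, and no filter gave 1 for KO against WT at 12 h. Without the libraries under 10 M the counts were 6 for the WT step from 24 to 36 h, 0 higher in KO at 0 h, and 2, 5 and 8 for the interactions at 6, 24 and 36 h. The cause of these moves was not tested. Leaving out 1 library at a time, the ranges were 10 to 16 at 6 h in WT, 3 to 6 and 7 to 20 for the WT steps from 6 to 12 h and 24 to 36 h, 3 to 14 for the KO rise, and 0 to 1, 11 to 28 and 1 to 3 for KO against WT at 0, 6 and 12 h. For the interactions they were 2 to 14, 0 to 1, 4 to 12 and 7 to 14 at 6, 12, 24 and 36 h, 0 to 8 for the step and 10 to 25 jointly. Titles give each WT library up to 24 h a number that 1 KO library of the same time shares, and no number is shared within 36 h. Deviations from the group means correlated with r over 0.1 in 9 of 12 such pairs, among them all at 0 and 6 h, and not in 2 of 3 at 12 h and 1 of 3 at 24 h (r from -0.151 to 0.488). Pairing was to be taken as given only where every pair passed, so the fit without the block was kept. With the replicate block over those 24 libraries the counts were 6 for KO against WT at 12 h and 10, 1 and 14 for the interactions at 6, 12 and 24 h, and the same 24 libraries without the block, a fit added after seeing the data, called 0 higher at 0 h. In 9 of 12 pairs each library correlated best with its own number, a hint of pairing from the data and not from the design.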
